A study of Mus musculus with 57 samples.

Results

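The genes described here are 6 Wnt ligands (*Wnt2*, *Wnt2b*, *Wnt4*, *Wnt5a*, *Wnt7b* and *Wnt11*), the R-spondin *Rspo2* and 3 genes that canonical Wnt signalling induces (*Axin2*, *Lef1* and *Notum*). They were taken by name from the gene tables, so that they are 10 of 56860 genes listed, and all of them were found in both tables. Their transcripts were measured by bulk RNA-seq of poly(A) RNA in 57 libraries from mouse embryos, with the aim of asking how loss of *Hoxa5* alters transcription in different tissues and at different ages. Mutants (*Hoxa5*-/-) were homozygous for the Hoxa5tm1Rob null allele, in which a *neomycin* cassette interrupts the homeobox, and controls were wild-type (wt), all on the 129/Sv background. With ages given as embryonic day (E), trachea and diaphragm at E15.5, lung at E12.5 and E15.5, and somites at E12.5 had 4 libraries of each genotype. Somites at E10.5 had 4 wt and 3 mutant libraries, and brown fat from between the shoulder blades (iBAT) had 5 of each genotype at E18.5. Somite samples were C3 to T2 segments of the trunk from which neural tube, limbs and organs had been dissected off. Replicates are described only as biological, so p-values measure the spread between these samples.

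Wnt proteins are lipid-modified ligands that act over short distances. In the canonical branch they bind Frizzled and LRP co-receptors, the destruction complex built on AXIN is held back, and β-catenin reaches TCF and LEF factors on DNA. R-spondins raise the response by taking the ubiquitin ligases RNF43 and ZNRF3 away from the receptors. *Wnt2* and *Wnt2b* from the mesoderm specify the lung field, *Wnt7b* is made by the lung epithelium, and *Wnt5a* and *Wnt11* are best known for non-canonical signalling in cell movement and tissue elongation.

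As sequence context, the 250 bases ahead of the start of the canonical transcript are shown for *Wnt2* and *Wnt11*, the members whose window held a TCF/LEF core motif, and for *Axin2*, the standard β-catenin target, whose window held none. The letters searched were CTTTGA and CTTTGT on both strands. They were present in 2 of the 10 windows and in 25.8% of the windows of 21761 protein-coding genes. Capitals mark the match, and every sequence runs 5′ to 3′ on the strand of its gene in GRCm39.
*Wnt2* (chr6:18030585-18030834, minus strand): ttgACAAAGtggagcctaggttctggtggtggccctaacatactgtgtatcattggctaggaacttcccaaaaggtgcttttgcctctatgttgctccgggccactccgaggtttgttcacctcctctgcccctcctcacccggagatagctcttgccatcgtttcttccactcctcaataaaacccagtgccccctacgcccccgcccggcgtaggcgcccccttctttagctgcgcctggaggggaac
*Wnt11* (chr7:98484088-98484337, plus strand): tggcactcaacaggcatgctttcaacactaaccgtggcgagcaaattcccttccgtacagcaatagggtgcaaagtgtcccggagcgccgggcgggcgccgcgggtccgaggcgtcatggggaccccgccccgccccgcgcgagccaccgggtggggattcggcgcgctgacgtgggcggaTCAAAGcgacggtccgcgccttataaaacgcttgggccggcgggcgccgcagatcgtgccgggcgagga
*Axin2* (chr11:108810925-108811174, plus strand): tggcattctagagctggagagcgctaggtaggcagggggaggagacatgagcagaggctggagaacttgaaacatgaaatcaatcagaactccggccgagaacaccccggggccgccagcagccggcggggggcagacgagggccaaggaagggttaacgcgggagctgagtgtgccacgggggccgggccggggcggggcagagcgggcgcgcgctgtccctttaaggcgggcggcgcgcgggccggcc
The match lay 247 bases before the *Wnt2* start and 69 bases before that of *Wnt11*. A match is only a run of letters and absence of one says nothing outside this window.

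Libraries held 18369905 to 72991481 counts assigned to genes, and levels are given in TPM, the share of a library's transcripts that belong to a gene after scaling for transcript length. *Hoxa5* was lower in every mutant library than in every wt library of its context, the closest being somites at E10.5 with 85.2 to 112.1 TPM in mutants and 164.1 to 236.5 TPM in wt, and reads from the interrupted gene are still counted. Marker genes of the labelled tissues were present, with skeletal muscle sums of at least 9053 TPM in diaphragm, lung epithelium sums of at least 1842 TPM in lung at E15.5 and brown fat sums of at least 13754 TPM in iBAT. Markers of neighbouring organs were present too, with liver sums of 345.9 to 10507 TPM in the diaphragm libraries and cardiac muscle sums of 1647 to 6029 TPM in those of the trachea. Several libraries stood apart. In diaphragm, wt replicate 3 had a lung epithelium sum of 538.2 TPM, against 58.9 to 82.5 TPM in the other 7 libraries, and wt replicates 1 and 2 had squamous and tracheal basal epithelium sums of 203.4 and 359.7 TPM, against 7.3 to 15.6 TPM elsewhere. Mutant replicate 3 of the trachea carried skeletal muscle at 2583 TPM, against 41.4 to 502.4 TPM in the other trachea libraries. In somites at E10.5, wt replicate 3 had skeletal muscle at 255.3 TPM, within the mutant range of 228.1 to 314.3 TPM and above the other wt libraries at 114.0 to 184.6 TPM. In bulk tissue, fewer cells that express a gene and less RNA in each cell cannot be told apart.

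Levels in wt tissue are given first, as TPM, a scale on which genes of different length can be compared, with gene positions in GRCm39. Trachea, lung and diaphragm were sequenced at another centre than somites and iBAT, so differences across those sets cannot be told apart from the centre. On this scale the median gene in iBAT against somites, and in diaphragm against lung or trachea, also stands lower than in the tests below. *Wnt2* (chr6:17988939-18030584) was highest in lung. It averaged 115.9 ± 18.7 TPM (SD, n = 4) in lung at E12.5 and 108.9 ± 5.19 TPM (n = 4) at E15.5, with overlapping ranges. The next level, 10.96 ± 1.55 TPM in somites at E12.5, lay clear below both lung ranges. Trachea followed at 10.49 ± 2.61 TPM, and the lowest mean was 3.07 ± 0.906 TPM (n = 5) in iBAT. *Wnt7b* (chr15:85419638-85466674) shared the respiratory bias and had 111.5 ± 10.1 TPM in lung at E12.5, 69.1 ± 8.27 TPM in lung at E15.5 and 47.4 ± 3.901 TPM in trachea. These 3 ranges did not touch each other. In iBAT *Wnt7b* was close to absent, with 1 count in 1 of the 5 wt libraries and 0 in the others.

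*Wnt2b* (chr3:104852588-104869237), the close relative of *Wnt2*, had a different order. Its highest mean was also in lung at E12.5, at 21.6 ± 2.16 TPM, but diaphragm came second with 13.5 ± 2.25 TPM and lung at E15.5 had only 5.11 ± 1.44 TPM. *Wnt4* (chr4:137004800-137027037), a ligand required in kidney and gonad formation, was low in lung. It reached 33.2 ± 5.69 TPM in trachea, 23.5 ± 7.61 TPM in somites at E10.5 and 21.4 ± 0.898 TPM in somites at E12.5, with each range overlapping the next. Lung at E12.5 and E15.5 had 4.47 ± 0.836 and 3.37 ± 0.480 TPM.

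The 2 mainly non-canonical ligands were both abundant in somites at E12.5. *Wnt5a* (chr14:28226707-28249405) had its highest mean there, 77.9 ± 11 TPM, followed by trachea with 50.5 ± 9.16 TPM, and these ranges did not overlap. It was lowest in lung at E12.5 and in iBAT, with 9.81 ± 1.21 and 9.73 ± 0.930 TPM, levels that overlapped. *Wnt11* (chr7:98484319-98504402) was at 49.1 ± 5.46 TPM in lung at E12.5 and 42.9 ± 0.981 TPM in somites at E12.5, whose ranges lay next to each other without touching. Its minimum was 4.81 ± 0.856 TPM in somites at E10.5.

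*Rspo2* (chr15:42884190-43034222), which encodes a secreted amplifier of Wnt responses, stood out in a single context. Lung at E12.5 had 59.7 ± 5.95 TPM, and the second highest mean was 12.3 ± 0.939 TPM in somites at E12.5. Lung at E15.5 and trachea followed at 7.22 ± 2.81 and 6.59 ± 1.46 TPM with overlapping ranges, and somites at E10.5 and diaphragm at 2.40 ± 0.564 and 2.28 ± 0.673 TPM, which overlapped too.

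*Axin2* (chr11:108811175-108841609), a scaffold of the destruction complex that restrains the pathway that induces it, was present in every context. Its 3 highest means overlapped at 53.8 ± 5.47 TPM in lung at E15.5, 49.7 ± 13.6 TPM in somites at E10.5 and 44.0 ± 3.01 TPM in lung at E12.5. Diaphragm and trachea overlapped in TPM at 22.2 ± 3.13 and 21.99 ± 1.20 TPM, and iBAT was lowest at 3.99 ± 0.578 TPM. *Lef1* (chr3:130904120-131018005), a DNA-binding partner of β-catenin, was highest in lung at E12.5 at 28.05 ± 2.18 TPM. Lung at E15.5 and somites at E12.5 had overlapping means of 10.3 ± 3.06 and 9.82 ± 1.41 TPM, and diaphragm had 1.34 ± 0.734 TPM. *Notum* (chr11:120544614-120552001), a secreted enzyme that strips the lipid from Wnt proteins, was the only target with its highest mean in trachea, with 26 ± 10.1 TPM there and 12.3 ± 1.37 TPM or less elsewhere. Over the 4 wt trachea libraries it spread from 14.4 to 35.2 TPM, the widest relative spread of the targets in that tissue.

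**Figure D1:**
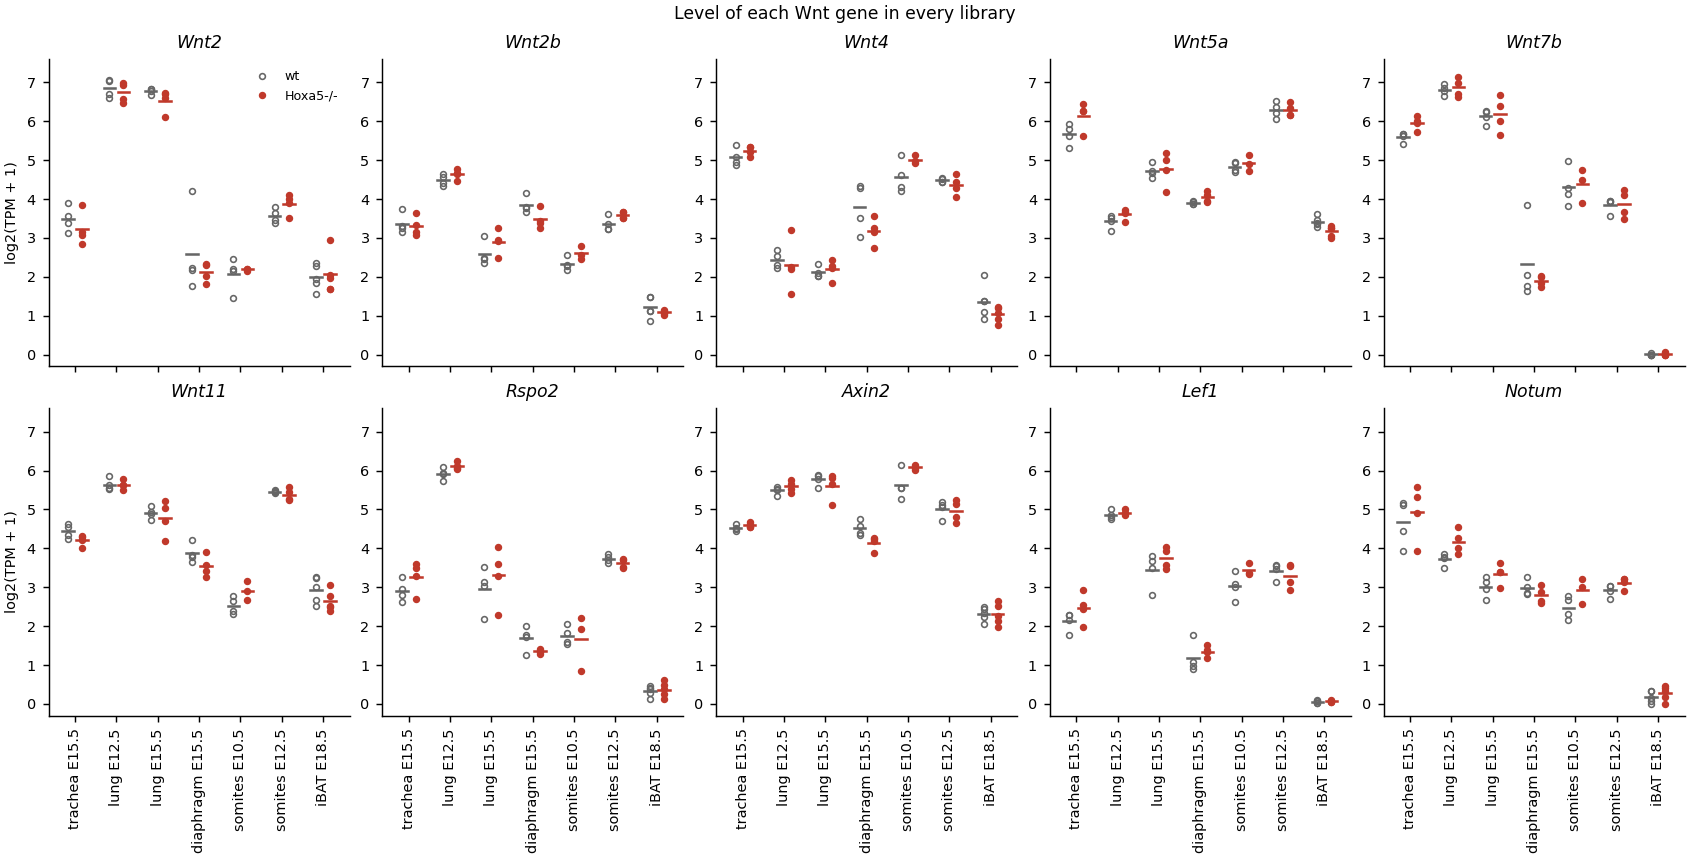
Level of each of the 10 genes in all 57 libraries, as log2(TPM + 1) on the vertical axis and tissue and stage on the horizontal axis, with wt as open and *Hoxa5*-/- as filled circles and group means as bars. The genotypes overlap in nearly every panel, whereas contexts differ widely. For *Wnt2*, wt means were 108.9 TPM in lung and 10.49 TPM in trachea, both at E15.5.

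Trachea, lung and diaphragm were sequenced as single reads of 100 bases and somites and iBAT as paired reads of 150 bases at another centre, so that tissue differences between those 2 sets cannot be told apart from the centre. Contexts were therefore tested within a set, on wt libraries only, with edgeR's quasi-likelihood test and Benjamini-Hochberg adjustment over all genes. Calls required a 1.5-fold difference or more together with an adjusted p below 0.05. The wt groups at E15.5 enter several of these comparisons, which are thus not independent.

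Between E12.5 and E15.5 the lung lost most of its *Rspo2*, *Wnt2b* and *Lef1* and gained *Wnt5a*. In all, 1 member rose and 6 fell, where 15.4% of all genes were called higher and 9.15% lower. *Rspo2* was at 59.0, 66.9, 52.4 and 60.4 TPM at E12.5 and at 7.72, 7.24, 3.55 and 10.4 TPM at E15.5, a log2 fold change of -3.09 (SE 0.25, adjusted p = 7.29e-06). *Wnt2b* had a log2 fold change of -2.12 (SE 0.17), from 19.2 to 24.1 TPM down to 4.09 to 7.24 TPM. *Lef1* had one of -1.48 (SE 0.19), from 26.2 to 31.1 TPM down to 5.98 to 12.99 TPM. No E15.5 library reached the E12.5 range for any of these 3 genes. Of all genes tested, 20.3% were likewise lower in every E15.5 library. *Notum*, *Wnt11* and *Wnt7b* also fell, with log2 fold changes of -0.82, -0.79 and -0.72. *Wnt5a* was the only member that rose, from 10.46, 8.10, 9.84 and 10.9 TPM to 24.4, 25.2, 30.04 and 22.3 TPM, with a log2 fold change of 1.34 (SE 0.11, adjusted p = 6.94e-06). *Wnt2* differed by -0.12 (95% interval -0.33 to 0.08), and *Axin2* by 0.25 with an adjusted p of 0.0254 but a fold change under 1.5. The median over the members was -0.76, against -0.01 over all genes tested. The lung epithelium sum was 493.1 to 640.8 TPM in the E12.5 lungs of both genotypes and 1842 to 9722 TPM in those at E15.5, and its part in these changes was not tested.

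Of 64 other pathway genes tested in lung, 12 were higher and 14 lower at E15.5. Among the R-spondin axis, *Rspo1* fell with *Rspo2*, from 117.4 to 35.6 TPM on average (log2 fold change -1.76, SE 0.11), and *Rspo3* by a log2 fold change of -1.87. *Sfrp1* and *Sfrp2*, secreted proteins that bind Wnt ligands, fell as well, at -2.46 and -2.12. None of the 12 intracellular transducers, the machinery between receptor and β-catenin, was called in either direction.

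In somites *Wnt2b*, *Wnt11* and *Rspo2*, which fell with age in lung, rose between E10.5 and E12.5, whereas *Wnt5a* rose and *Wnt7b* fell in both tissues. From E10.5 to E12.5, 5 members rose and 2 fell, where 24.1% of all genes were called higher and 18.4% lower. *Wnt11* showed the largest difference, from 4.26, 3.95, 5.79 and 5.25 TPM to 44.0, 41.7, 43.3 and 42.7 TPM (log2 fold change 3.10, SE 0.10, adjusted p = 4.03e-11). *Rspo2* rose by 2.30 (SE 0.15), from 1.92 to 3.15 TPM up to 11.2 to 13.4 TPM. *Wnt2*, *Wnt5a* and *Wnt2b* rose by 1.63, 1.44 and 1.14, and their ranges at the 2 stages did not overlap. Of all genes tested, 31.9% were likewise higher in every E12.5 library. *Axin2* fell at -0.70 (SE 0.14) and *Wnt7b* at -0.60 (SE 0.19), but both lost the call without wt replicate 3 of E10.5, at -0.54 and -0.35, and *Wnt7b* also without wt replicate 2 of E12.5, at -0.52. In that replicate *Axin2* stood at 69.1 TPM, against 37.2, 46.1 and 46.3 TPM in the other wt libraries, and *Wnt7b* at 30.7 TPM against 13.1 to 18.4 TPM. The members' median was 0.79, against -0.04 over all genes tested. Tissue content also differed between the stages. The neural tube sum was 116.7 to 159.4 TPM at E10.5 and 9.3 to 20.1 TPM at E12.5, whereas skeletal muscle went from 114.0 to 314.3 TPM up to 1767 to 2702 TPM and cartilage from 182.5 to 298.2 TPM up to 1443 to 2448 TPM, and their part in the result was not tested.

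Of the other pathway genes, 38 of 76 rose and 11 fell in somites. The secreted antagonists contributed 12 of 16 that rose and 2 that fell, and the Frizzled receptors and co-receptors 12 of 16 and 2. *Dkk2*, which blocks LRP co-receptors, went from 9.48 to 135.0 TPM on average (log2 fold change 3.77, SE 0.09), and *Fzd9*, a receptor, from 5.82 to 48.6 TPM. *Wnt1*, a ligand of the dorsal neural tube, fell from 17.1 to 0.717 TPM (log2 fold change -4.64, SE 0.39).

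At E15.5 trachea and lung differed in both directions. Trachea had 4 members higher and 3 lower than lung, where 20.1% of all genes were called higher and 10.1% lower. *Wnt4* was at 28.5, 32.9, 41.3 and 30.1 TPM in trachea and 3.07, 3.05, 4.07 and 3.30 TPM in lung (log2 fold change 3.27, SE 0.16, adjusted p = 1.04e-06). *Wnt2* was at 9.50, 7.72, 13.9 and 10.9 TPM in trachea and 109.3, 112.9, 101.5 and 111.9 TPM in lung (log2 fold change -3.40, SE 0.16, adjusted p = 1.06e-06). For both ligands the ranges were far apart, and 44.96% of all genes tested had ranges that did not overlap, in either direction. *Notum*, *Wnt5a* and *Wnt2b* were higher in trachea by 1.83, 0.95 and 0.86 on the log2 scale, and *Lef1* and *Axin2* were lower, at -1.63 and -1.33 on the log2 scale. The 3 target genes thus did not share a direction between these tissues. *Wnt7b* and *Wnt11* differed by -0.58 and -0.52, with adjusted p of 0.00108 and 0.00429, under the 1.5-fold minimum. *Wnt7b* was called at -0.59 by DESeq2.

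Secreted antagonists were mostly higher in trachea, with 11 of 15 tested called higher and 1 lower. *Wif1*, which sequesters Wnt ligands, averaged 233.8 TPM in trachea and 12.498 TPM in lung (log2 fold change 4.19, SE 0.17), and *Sostdc1*, an antagonist of Wnt and BMP signals, 53.6 and 1.03 TPM. Of the feedback targets, a list that includes *Axin2*, *Lef1* and *Notum*, 6 of 11 tested were lower and 3 higher. *Tcf7*, a sister factor of *Lef1*, was at 16.4 TPM in trachea and 125.3 TPM in lung (log2 fold change -2.97, SE 0.17), and *Sp5*, a direct β-catenin target, at 2.67 and 19.7 TPM.

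Diaphragm had 2 members higher and 6 lower than lung at E15.5, where 20.9% of all genes were called higher and 15.6% lower. *Wnt4* and *Wnt2b* were higher by 2.35 (SE 0.32) and 1.71 (SE 0.19). *Wnt2*, *Wnt7b* and *Lef1* were lower, with log2 fold changes of -3.73, -3.43 and -2.64, as were *Rspo2*, *Axin2* and *Wnt11*, at -1.36, -0.97 and -0.76. The first 2 values rest partly on wt replicate 3 of the diaphragm, the library with the high lung epithelium sum, and without it they were -4.78 and -4.43. Against trachea, diaphragm had 1 member higher, *Wnt2b* at 0.80 (SE 0.17), and 6 lower, where 14.1% and 18.4% of all genes were called. *Wnt7b*, *Notum*, *Wnt5a* and *Rspo2* were lower, at -2.90, -1.59, -1.55 and -1.24, and without diaphragm wt replicate 3 the *Wnt7b* value was -3.86. *Lef1* and *Wnt4* were lower at -1.05 and -0.97, with adjusted p of 0.0244 and 0.0266, but these calls depended on single libraries. The *Lef1* call was lost without trachea wt replicate 2 or 4 or diaphragm wt replicate 1, 2 or 4, at -0.99 to -0.90, and that of *Wnt4* without trachea wt replicate 2 or 3 or diaphragm wt replicate 4, at -0.97 to -0.84. *Wnt2* was not called against trachea (-0.37, SE 0.57) and was called without diaphragm wt replicate 3, at -1.36. *Axin2*, close in mean TPM, was higher in diaphragm than in trachea by 0.32 in the fit and was not called. Without diaphragm wt replicate 3 it was 0.43 (adjusted p = 0.0229 by edgeR), under the 1.5-fold minimum.

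In iBAT at E18.5 all 10 members were lower than in somites at E12.5, the nearest stage of the same set, where 66.3% of all genes were called and 35.3% called lower. *Wnt5a* and *Wnt11* remained the most abundant, at 8.67 to 11.2 TPM and 4.77 to 8.61 TPM, and differed from somites by -1.80 (SE 0.09) and -1.45 (SE 0.12). *Lef1*, *Rspo2* and *Notum* were close to the detection limit, with at most 4, 15 and 5 counts in any wt library. *Wnt2* was the least different, at -0.62 (SE 0.20), and fell under the 1.5-fold minimum without somite wt replicate 4 or iBAT wt replicate 4 or 5, at -0.52 to -0.48. Age, tissue and stage are confounded in this pair. Log2 ratios of mean TPM minus these fitted values had a median of -1.21 over all genes, and every member was lower on both scales. The same median was -0.31 for diaphragm against lung and -0.29 for diaphragm against trachea, where no called member changed sign either. Of the other pathway genes 60 of 73 were lower and 5 higher, of which *Fzd5*, *Dvl1* and *Gsk3a* were higher only in the fit and lower in TPM.

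**Figure D2:**
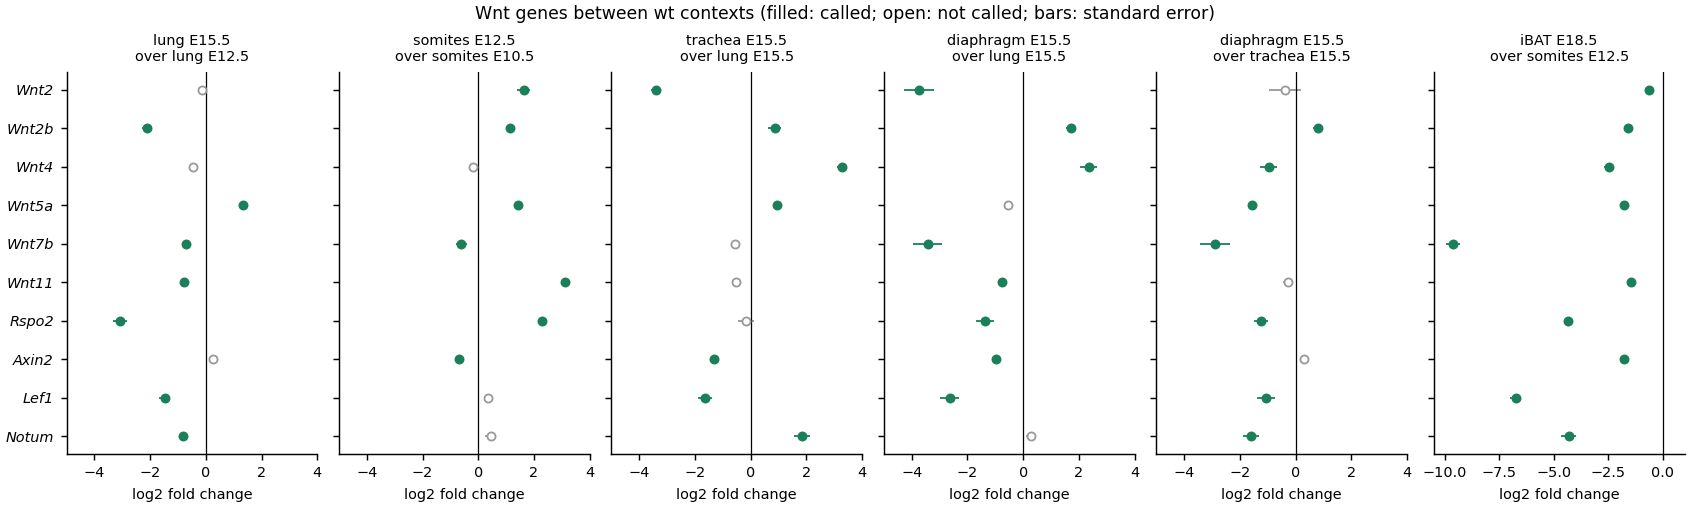
Log2 fold changes of the 10 genes between wt contexts of the same sequencing set with standard errors, each panel giving the first named context over the second, with called genes filled and others open and a wider scale for iBAT. *Rspo2* sits at -3.09 in lung with age and at 2.30 in somites with age.

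Genotypes were then compared within each context. None of the 10 members was called by edgeR in any of the 7 contexts, nor by DESeq2, the tool the study used, which returned no adjusted p for *Wnt7b* in diaphragm. In iBAT 6 members could be tested, since *Wnt7b*, *Rspo2*, *Lef1* and *Notum* were under 1 TPM in both groups. Few genes of any kind were called. The shares over all genes by edgeR were 0.0156% in trachea, 0.0798% in lung at E12.5, 0.124% in lung at E15.5, 0.594% in diaphragm, 0.0215% in somites at E10.5, 0.00529% in somites at E12.5 and 0.00657% in iBAT. By DESeq2 they were 0.271%, 0.462%, 0.467%, 2.25%, 0.0969%, 0.0106% and 0.0263% in the same order. What follows gives the members' values and the intervals that the data allow.

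**Figure D3:**
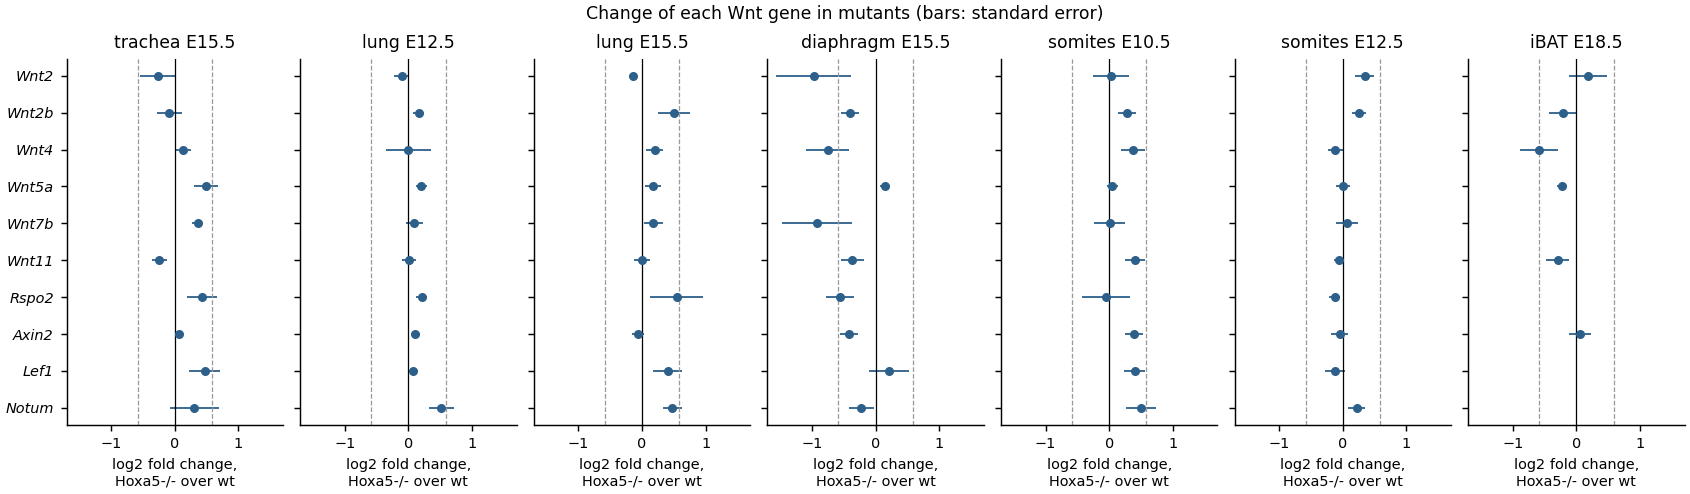
Log2 fold change of each gene in *Hoxa5*-/- over wt in the 7 contexts with standard errors, dashed lines marking a 1.5-fold difference. All 10 genes lack a call in every panel, 4 genes are missing from iBAT for low level, and the longest bars are those of *Wnt2* and *Wnt7b* in diaphragm.

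In trachea at E15.5, *Wnt7b* was the member with the smallest p. It stood at 61.6, 68.7, 51.8 and 62.8 TPM in mutants and 50.3, 41.8, 49.7 and 47.9 TPM in wt, so that every mutant library lay above every wt library, as did 2.08% of all genes tested. The log2 fold change was 0.36 (SE 0.09, 95% interval 0.15 to 0.57), with an adjusted p of 0.618 by edgeR's quasi-likelihood test and 0.0681 by DESeq2. *Wnt5a* was at 75.2, 76.3, 48.0 and 85.4 TPM in mutants and 54.3, 48.4, 39.0 and 60.5 TPM in wt (log2 fold change 0.49, SE 0.18, adjusted p = 0.736). Its ranges overlapped through mutant replicate 3, the library rich in skeletal muscle, and replicate 3 was the lowest library in wt too. These 2 members had an unadjusted p under 0.05, as did 6.7% of all genes. The third replicate of either genotype also had the lowest *Lef1*, *Rspo2* and *Notum* levels of its group, for *Notum* 14.3 TPM in the mutant and 14.4 TPM in wt against 20.7 to 46.6 TPM elsewhere, and the highest squamous and tracheal basal epithelium sums, 914.2 and 1136 TPM against 245.7 to 490.0 TPM, whose part in these values was not tested. *Axin2* was the most constant member, from 20.9 to 24.8 TPM over all 8 libraries, and its difference of 0.07 had a 95% interval of -0.07 to 0.22. The cardiac muscle sum was lower in every mutant trachea, at 1647 to 3273 TPM against 3366 to 6029 TPM in wt, and its part in the values of this tissue was not tested. It was the only 1 of 18 marker lists without overlap between the genotypes there.

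In lung at E12.5 the genotypes lay close together. *Notum* was at 22.5, 18.3, 15.2 and 13.4 TPM in mutants and 10.3, 13.5, 12.7 and 12.6 TPM in wt (log2 fold change 0.52, SE 0.19, adjusted p = 0.55). Mutant replicate 4 fell just inside the wt range. *Rspo2* differed by 0.21 (SE 0.09, adjusted p = 0.594), with 65.4, 65.7, 68.5 and 75.2 TPM in mutants and 59.0, 66.9, 52.4 and 60.4 TPM in wt, and *Wnt5a* by 0.20 (SE 0.09, adjusted p = 0.616). These 3 members had an unadjusted p under 0.05, as did 8.01% of all genes. For *Wnt2* the interval was -0.36 to 0.16 and for *Axin2* -0.05 to 0.27, and neither reaches a 1.5-fold difference. *Wnt4* was too variable for that, from 1.93 to 8.30 TPM in mutants, with an interval of -0.78 to 0.77. The cartilage sum was higher in every mutant lung at this stage, at 116.8 to 134.7 TPM against 84.8 to 99.3 TPM, as was the brown fat sum, at 16.9 to 20.4 TPM against 12.3 to 14.3 TPM, and their part was not tested. These were the only 2 of 18 marker lists without overlap between the genotypes.

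In lung at E15.5, *Notum* again had the smallest p of the members. Mutants had 9.46, 9.53, 11.3 and 6.92 TPM and wt lungs 7.79, 5.38, 8.53 and 6.77 TPM (log2 fold change 0.48, SE 0.15, adjusted p = 0.557). The 2 groups overlapped in TPM through mutant replicate 4, a library whose TPM values were low in general, with a median log2 ratio of -0.56 to the mean of the other 7 lung libraries over 16912 genes, against 0.04 to 0.09 for the others. In CPM, library-scaled counts without this shift, *Notum* was at 5.70 to 6.87 in mutants and 3.33 to 5.13 in wt, which did not overlap, and 1.83% of all genes were likewise higher in every mutant. *Wnt2*, the most abundant ligand, was at 102.5, 105.0, 95.8 and 67.8 TPM in mutants and 109.3, 112.9, 101.5 and 111.9 TPM in wt (log2 fold change -0.14, SE 0.06, adjusted p = 0.732). In CPM, *Wnt2* in mutant replicate 4 was 55.01, close to the 54.4 of mutant replicate 3, and the groups overlapped at 54.4 to 59.6 in mutants and 57.1 to 65.3 in wt. The study's sequencing statistics also list the lowest mapped and assigned shares of the E15.5 lungs for mutant replicate 4. *Notum* and *Wnt2* were the members with an unadjusted p under 0.05, as were 6.32% of all genes. *Rspo2* varied more within genotypes than between them. It was at 11.02, 15.46, 3.91 and 8.80 TPM in mutants and 7.72, 7.24, 3.55 and 10.4 TPM in wt, and its interval, -0.39 to 1.48, covers a difference of more than 1.5-fold. The lowest value in either genotype was replicate 3, in which the lung epithelium sum was highest, at 9722 and 9583 TPM against 1842 to 6624 TPM in the other 6 libraries. *Wnt2b* was also lowest in replicate 3 of either genotype, at 4.63 and 4.09 TPM, against 4.47 to 8.62 TPM in the others. The blood endothelium sum was lower in every mutant lung, at 588.0 to 668.4 TPM in mutant replicates 1 to 3 and 392.5 TPM in replicate 4 against 706.1 to 868.2 TPM in wt. No other of the 18 marker lists lacked overlap between the genotypes in TPM. The part of epithelial and endothelial content in these values was not tested.

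**Figure D4:**
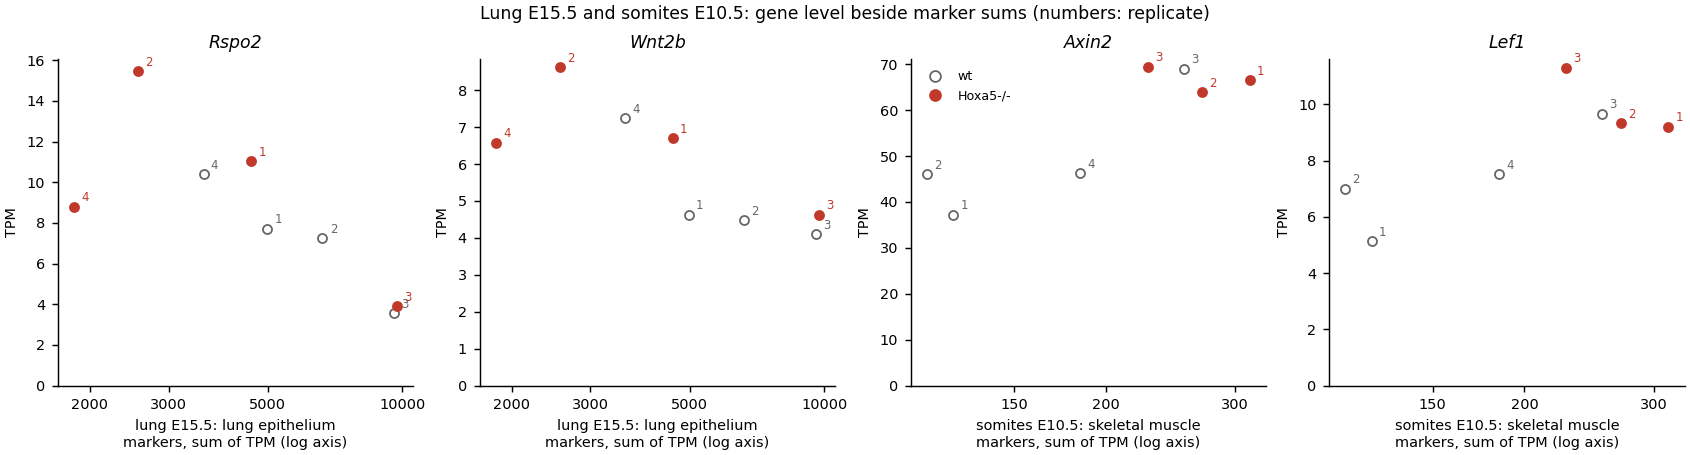
TPM of *Rspo2* and *Wnt2b* in lung at E15.5 against the summed TPM of the lung epithelium markers, and of *Axin2* and *Lef1* in somites at E10.5 against that of the skeletal muscle markers (log horizontal axes, 1 point per library with its replicate number, wt open and *Hoxa5*-/- filled). Replicate 3 of both genotypes is at the right of the lung panels with 3.91 and 3.55 TPM of *Rspo2*, and wt replicate 3 lies among the mutants in the somite panels with 69.1 TPM of *Axin2*.

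Diaphragm at E15.5 was the context with the most genes called and with the largest members' median, -0.41 against 0.00 over all genes tested, and 8 of 10 members had a negative log2 fold change. *Axin2* was at 18.3, 17.3, 13.7 and 17.9 TPM in mutants and 26.2, 19.3, 20.1 and 23.03 TPM in wt. All mutant libraries were thus below all wt libraries, as was the case for 4.62% of the genes tested, and the log2 fold change was -0.41 (SE 0.14, 95% interval -0.73 to -0.09, adjusted p = 0.257 by edgeR and 0.107 by DESeq2). *Wnt2b* was at 9.51, 13.1, 9.86 and 8.56 TPM in mutants and 12.7, 16.8, 12.8 and 11.7 TPM in wt (-0.41, SE 0.14, adjusted p = 0.265), and *Rspo2* at 1.43 to 1.67 TPM and 1.38 to 2.999 TPM (-0.56, SE 0.22, adjusted p = 0.32). These 3 members had an unadjusted p under 0.05, as did 13.03% of all genes. *Wnt4* was split within wt, with 19.3 and 18.4 TPM in replicates 1 and 2 and 7.16 and 10.48 TPM in replicates 3 and 4, against 8.56, 7.94, 5.69 and 10.8 TPM in mutants (-0.76, SE 0.33, adjusted p = 0.385). The 2 high libraries are those with squamous and tracheal basal epithelium sums of 203.4 and 359.7 TPM, and the part of that tissue in the *Wnt4* value was not tested. Of 18 marker lists, 3 did not overlap between the genotypes in diaphragm. The neural crest and glia sum was 35.2 to 42.6 TPM in mutants and 55.6 to 86.8 TPM in wt, the limb and lateral plate sum 40.9 to 52.4 and 57.4 to 66.4 TPM, and the somite sum 161.6 to 183.3 and 140.8 to 159.7 TPM. Liver sums overlapped, at 345.9 to 10507 TPM in mutants and 1510 to 8531 TPM in wt, and the part of these tissues was not tested.

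The 2 largest differences in diaphragm came from 1 library. *Wnt2* was at 3.56, 3.67, 17.3 and 2.38 TPM in wt and 3.95, 3.04, 2.53 and 4.04 TPM in mutants (-0.97, SE 0.59, adjusted p = 0.531), and *Wnt7b* at 2.43, 3.11, 13.3 and 2.13 TPM in wt and 2.56, 3.08, 2.99 and 2.36 TPM in mutants (-0.92, SE 0.55, adjusted p = 0.53). Without wt replicate 3 these became 0.079 (SE 0.24) and 0.094 (SE 0.16). *Lef1* behaved in the opposite way. Its levels were 1.60, 1.83, 1.51 and 1.25 TPM in mutants and 0.97, 1.11, 2.43 and 0.86 TPM in wt. Without that replicate its log2 fold change was 0.65 (SE 0.16, adjusted p = 0.123 by edgeR) in place of 0.21 (SE 0.31), and it was not called. *Wnt4* and *Axin2* stayed negative without it, at -0.97 (adjusted p = 0.155) and -0.46 (adjusted p = 0.203), and the members' median was -0.32. In this library the lung and foregut mesenchyme sum was 141.3 TPM as well, against 16.9 to 69.8 TPM in the others.

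**Figure D5:**
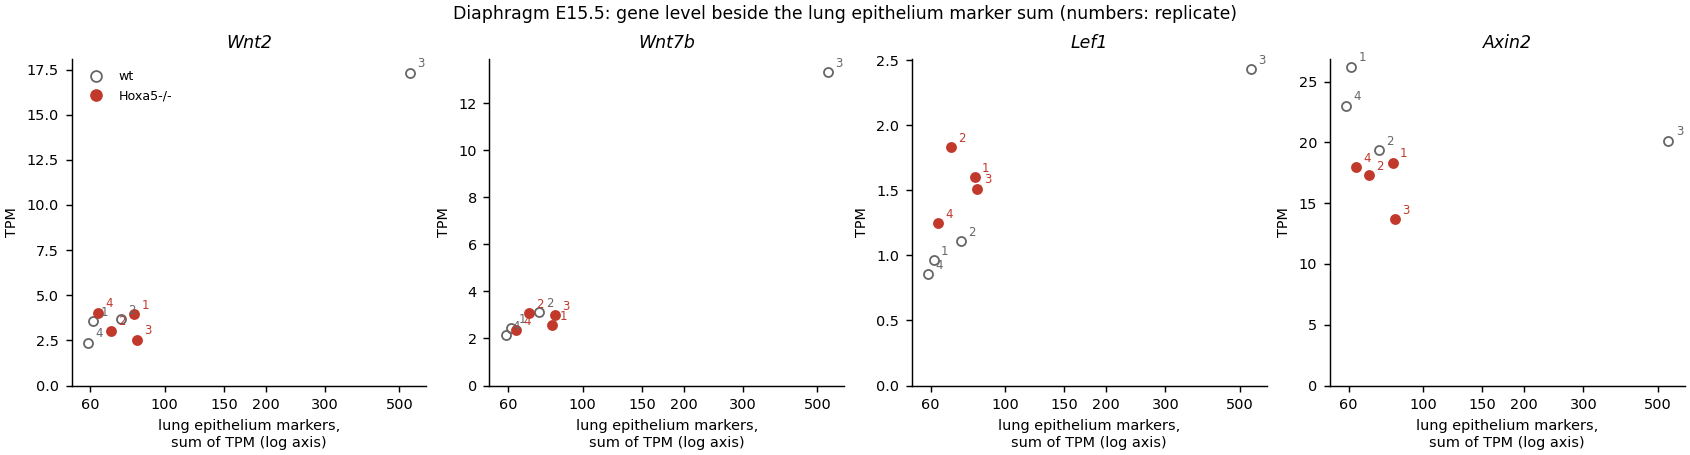
TPM of *Wnt2*, *Wnt7b*, *Lef1* and *Axin2* in the 8 diaphragm libraries at E15.5 against the summed TPM of the lung epithelium markers (log horizontal axis, numbers give the replicate, wt open and *Hoxa5*-/- filled). Wt replicate 3 is alone at 538.2 TPM of markers and holds the highest *Wnt2*, *Wnt7b* and *Lef1* values, whereas its *Axin2*, 20.1 TPM, is within the wt range.

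Beyond the members, 2 pathway genes were called between genotypes, both in diaphragm, of 66 tested there. The shares over all genes in diaphragm were 0.594% by edgeR and 2.25% by DESeq2. *Sfrp5*, a secreted Wnt antagonist, was at 0.60 to 1.26 TPM in mutants and 3.60 to 6.09 TPM in wt (log2 fold change -2.54, SE 0.27, adjusted p = 0.00679), and the call held in each of 8 fits that left out 1 library. *Wnt6*, a ligand of epithelia, was at 6.27 to 8.70 TPM in mutants and 2.13 to 4.05 TPM in wt (1.30, SE 0.20, adjusted p = 0.0314), and its call held in 1 of the 8 fits, the highest adjusted p being 0.125. DESeq2 further called *Sostdc1* at -2.02 and *Kremen2*, a co-receptor of DKK proteins, at 1.08, for which edgeR gave adjusted p of 0.0784 and 0.0987. In the other 6 contexts 0 of 46 to 75 pathway genes tested were called by edgeR, and DESeq2 added *Dkk1*, an LRP antagonist, in lung at E12.5 (2.10, SE 0.57, adjusted p = 0.025, and 0.329 by edgeR).

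In somites at E10.5, 9 of 10 members had a positive log2 fold change and their median was 0.33, against -0.01 over all genes tested. *Axin2* was at 66.5, 63.9 and 69.5 TPM in mutants and 37.2, 46.1, 69.1 and 46.3 TPM in wt (log2 fold change 0.39, SE 0.14, adjusted p = 0.391). *Lef1* was at 9.21, 9.34 and 11.3 TPM in mutants and 5.14, 7.01, 9.68 and 7.53 TPM in wt (0.40, SE 0.17, adjusted p = 0.391). For both targets the overlap came from wt replicate 3 alone. *Wnt4* had the same shape, with 29.2, 30.6 and 33.9 TPM in mutants and 17.3, 23.7, 34.1 and 18.8 TPM in wt (0.37, SE 0.18, adjusted p = 0.396), and *Wnt11* differed by 0.41 (SE 0.16, adjusted p = 0.391). *Axin2*, *Lef1* and *Wnt11* had an unadjusted p under 0.05, as did 12.7% of all genes. Sums of 4 of 18 marker lists did not overlap between the genotypes, and 3 of these sums were above wt in every mutant library. They were 101.7 to 114.4 TPM against 68.3 to 95.5 TPM for neural crest and glia, 113.6 to 123.3 against 61.998 to 107.7 TPM for general epithelium and 167.3 to 187.5 against 132.8 to 164.7 TPM for blood endothelium, whereas the liver sum was lower, at 1.58 TPM or less in every library. The part of these tissues in the members' values was not tested.

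Without wt replicate 3, 3 members passed an adjusted p of 0.05 in somites at E10.5, namely *Axin2* (0.56, SE 0.09, adjusted p = 0.0139), *Wnt4* (0.58, SE 0.13, adjusted p = 0.0258) and *Lef1* (0.54, SE 0.15, adjusted p = 0.0423). All 3 were still under the 1.5-fold minimum. Across all genes the number called went from 4 to 386 without that library, and 2833 of 18664 passed the adjusted p alone, so that these members were 3 among many. *Hoxa5* in this library was 236.5 TPM, the highest of the wt group, and its skeletal muscle sum lay in the mutant range, as given above, and the part of muscle content in these values was not tested.

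Values in somites at E12.5 lay closer to 0. *Axin2* was at 23.99, 27.2, 36.7 and 34.2 TPM in mutants and 32.2, 25.01, 33.8 and 35.7 TPM in wt, and its log2 fold change of -0.05 had a 95% interval of -0.35 to 0.25. *Lef1* differed by -0.12 and *Wnt4* by -0.12, with intervals of -0.46 to 0.23 and -0.36 to 0.13. *Wnt2* and *Wnt2b* had an unadjusted p under 0.05, as did 3.24% of all genes. *Wnt2* was at 10.4, 13.96, 15.1 and 16.2 TPM in mutants and 9.98, 9.48, 11.5 and 12.9 TPM in wt (0.34, SE 0.15, adjusted p = 0.999), and *Wnt2b* differed by 0.25 (SE 0.11, adjusted p = 0.999). The members' median was -0.02.

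In iBAT at E18.5, *Wnt5a* was at 8.85, 8.56, 8.56, 7.06 and 7.23 TPM in mutants and 9.98, 9.48, 8.67, 9.34 and 11.2 TPM in wt. The groups overlapped by a single mutant library, and the log2 fold change was -0.23 (SE 0.07, 95% interval -0.38 to -0.07), with an unadjusted p of 0.00741 and an adjusted p of 1.0. This fit was unpaired. In it, *Wnt5a* was the only tested member of 6 with an unadjusted p under 0.05, which 2.47% of all genes had. With the replicate number as a block in edgeR, *Wnt5a* (-0.23, unadjusted p = 0.0103) and *Wnt4* (-0.52, unadjusted p = 0.0385) both had one, as did 3.58% of all genes, and all adjusted p were 0.999. *Wnt4* was lower in the mutants on average (-0.59, SE 0.30, adjusted p = 1.0), with 0.70 to 1.36 TPM against 0.90 to 3.11 TPM. *Axin2* differed by 0.05, with an interval of -0.32 to 0.43.

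Whether the genotype difference itself varied between contexts was tested with interaction terms, called at an adjusted p under 0.05. None of the 10 members was called by edgeR or DESeq2 between the lung stages, between the somite stages, or between pairs of trachea, lung and diaphragm, where 0.0267%, 0.0147%, 0.0% (trachea against lung), 0.93% (diaphragm against lung) and 0.93% (diaphragm against trachea) of all genes were called by edgeR, and by DESeq2 0.0961%, 0.0833%, 0.231%, 1.81% and 1.85%. The numbers of members with an unadjusted p under 0.05 were 0, 3, 0, 5 and 3 in that order, beside 5.25%, 14.3%, 5.28%, 8.09% and 9.13% of all genes. Without wt replicate 3 of somites at E10.5, *Wnt4*, *Wnt11* and *Axin2* were called between the somite stages, at -0.68, -0.54 and -0.59 (adjusted p = 0.0271, 0.0368 and 0.0495), in a fit that called 12.6% of all genes. Without wt replicate 3 of the diaphragm, *Wnt4* was called against lung (-1.19, adjusted p = 0.0386) and against trachea (-1.11, adjusted p = 0.0461), where 1.07% and 1.19% of all genes were called. Each of these calls was made in only 1 of 24 fits that left out 1 library. The wt libraries kept in that fit include those with high *Wnt4* and high squamous and tracheal basal epithelium sums given above. The part of that tissue in these calls was not tested.

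Finally, genes with a similar pattern were sought by the Pearson correlation of log2(TPM + 1) over all 57 libraries among 17344 genes. The libraries share tissues and sequencing sets, so that these values describe tissue patterns. *Axin2* was most like *Lrp3* and *Pwwp2a* (r = 0.98 and 0.98), *Wnt7b* like *Map3k9* and *Slc9a5* (0.98 and 0.97), *Wnt4* like *Spock2* and *Ptprz1* (0.97 and 0.96) and *Notum* like *Ebf4* and *Lman2l* (0.97 and 0.95). *Wnt2* was most like *Eva1a* and *Arg2* (0.96 and 0.96), *Lef1* like *Lin7a* and *Shkbp1* (0.96 and 0.95), *Wnt5a* like *Cnmd* and *Lrrtm3* (0.95 and 0.94) and *Wnt2b* like *Sulf1* and *Osr1* (0.93 and 0.93). *Otof* was the first neighbour of both *Rspo2* (0.94) and *Wnt11* (0.91), followed by *Add3* (0.93) and *F2rl1* (0.91). Among the members, *Lef1* went with *Wnt7b* (0.89), *Rspo2* (0.89) and *Axin2* (0.88), *Wnt4* with *Wnt5a* (0.78), and *Wnt2* and *Wnt4* were the least alike (-0.23).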

How the data were processed

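RNA-seq of poly(A) RNA was analysed in 57 libraries of 14 groups. Before deposit, adapters had been removed (Trim Galore 0.6.5) and alignment made to GRCm39 (STAR 2.7.9a). The authors deposited raw counts per gene (featureCounts 2.0.3, Ensembl release 109 with hand-edited *Hox* genes). They also deposited TPM values computed from those counts. Per library, 18369905 to 72991481 counts were assigned, and low counts limit precision in iBAT. Groups came from the sample labels, all columns were mapped, and no libraries were identical.

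Genes at 1 TPM or more on average in either group were tested on the counts with edgeR 4.0.16 (quasi-likelihood test, TMM scaling, R 4.3.3), with Benjamini-Hochberg adjustment over all genes tested. Calls needed an adjusted p under 0.05 and, except for interactions, a 1.5-fold change. Intervals are 95% and use a t distribution with degrees of freedom worked back from the p and SE of the fit. Where this could not be solved, as for an estimate with almost no difference, the median multiplier of the other members was used. Likeness used log2(TPM + 1). CPM for lung at E15.5 used TMM scaling and was added after the data were seen. DESeq2 1.42.0, other scalings, filters, a replicate block and leaving out each library were alternatives. The procedure was tested on simulated data. Gene positions and promoter windows came from GRCm39 and GENCODE M32. Members, pathway lists and marker lists were chosen with earlier results of these data known. All members were named, with other pathway genes named by the size of a called difference and genes most like a member by correlation.

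Same-numbered iBAT libraries deviated together in all 5 pairs (r = 0.13 to 0.40), so that iBAT values with a replicate block are given beside the main fit. Differently numbered iBAT pairs reached 0.15, above the lowest of these. The main iBAT fit and its calls used no pairing. The sample names in the labels also begin with a number that same-numbered replicates of both genotypes share, replicates 4 and 5 having 1 number in common, but the labels do not say what it marks. In the other contexts not every pair passed 0.1. Single same-numbered pairs were nevertheless stronger than in iBAT, up to 0.68 in lung at E15.5, 0.63 in diaphragm and 0.49 in trachea. Differently numbered pairs there reached 0.57, 0.40 and 0.64.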

Additional observations from a re-analysis of the deposited data

Results flagged for a closer look

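In 6 of 122 sets of values, each of 1 member in 1 context and genotype, 1 library lay far from the rest by Dixon's criterion. Chance alone gives about 1 in 20 sets. The sets share libraries and are not independent. Of these 6 values, 3 belong to wt replicate 3 of the diaphragm, with *Wnt2* at 17.3 TPM, *Wnt7b* at 13.3 TPM and *Lef1* at 2.43 TPM. The others were *Wnt2* at 6.69 TPM in mutant replicate 1 of iBAT, *Wnt2b* at 7.24 TPM in wt replicate 4 of lung at E15.5, and *Wnt7b* at 10.8 TPM, the lowest of its group, in wt replicate 2 of somites at E12.5.

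The effect of genotype on 2 other pathway genes, both antagonists, differed between tissues at E15.5 by edgeR's interaction test. Of all genes, 0.93% were called for diaphragm against lung and 0.93% for diaphragm against trachea. For *Sfrp5* the effect in diaphragm minus that in lung was -3.53 on the log2 scale (SE 0.61, adjusted p = 0.00342), called in all 24 fits that left out 1 library. Against trachea it was -2.46 (SE 0.55, adjusted p = 0.0295), called in 16 of 24. For *Sostdc1* the differences were -2.54 (SE 0.48, adjusted p = 0.00712) against lung and -2.12 (SE 0.42, adjusted p = 0.0124) against trachea, each called in 24 of 24. These comparisons share the diaphragm libraries. *Sostdc1* was not called by edgeR between genotypes in diaphragm itself, and its wt level in lung was low. Wt replicates 1 and 2 of the diaphragm held the high squamous and tracheal basal epithelium sums given above. Leaving out 1 library never removes both, and the part of that tissue in these values was not tested.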

How the results depend on the processing

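The 5 summary counts that moved were all of interactions, for which 0 members were called at first. Leaving out 1 library gave 0 to 3 members for the somite stages, 0 to 1 for diaphragm against lung and 0 to 1 for diaphragm against trachea, the highest values coming without wt replicate 3 of somites at E10.5 or of the diaphragm. With a replicate block, 1 member was called against lung (*Wnt2b*, -0.91, adjusted p = 0.0281) and 1 against trachea (*Axin2*, -0.48, adjusted p = 0.0174), beside 1.78% and 2.47% of all genes. The block changed no other count of members called, although *Wnt2b* and *Axin2* passed an adjusted p of 0.05 in diaphragm (0.0354 and 0.0431) below the fold minimum. In lung at E15.5 and in diaphragm the block raised the genes called from 22 to 104 and from 107 to 358, and in lung at E12.5 it lowered them from 14 to 4. These numbers are not known to mark shared litters. In iBAT, where same-numbered libraries deviated together, the block called 2 genes in place of 1 and 0 members. A block on the leading number of the sample names did the same, and there *Wnt4* had an unadjusted p of 0.0534 by edgeR. *Wnt2* and *Wnt7b* in diaphragm ranged from -1.25 to 0.079 and from -1.18 to 0.094 when 1 library was left out, reversing without wt replicate 3. The other 308 summary results kept their count or stayed within 1.5 times of it. That count was 0 for every genotype comparison and interaction, where no ratio can be formed. Among alternative values of single genes, 23 gained a call that the main fit lacked, 16 lost one and 2 reversed in sign. DESeq2 called more genes between genotypes in every context, such as 406 against 107 in diaphragm, 52 against 3 in trachea, 81 against 14 in the younger and 83 against 22 in the older lung, and 18 against 4 in somites at E10.5. Groups of 3 to 5 libraries limit what can be detected, as do the few counts of *Wnt7b*, *Lef1*, *Notum* and *Rspo2* in iBAT.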
